A study of Homo sapiens with 8 samples.

Results

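The clustered protocadherins and the classical cadherins were followed in the human colorectal carcinoma line HCT-116 by the probes of an expression array whose gene symbol begins with PCDHA, PCDHB, PCDHGA, PCDHGB or PCDHGC and a number, or is CDH followed by a number. These symbols covered 88 of the 50599 probes that were not controls, and they named 73 genes among the 36337 gene symbols or identifiers on the array. Of the 88 probes, 16 belonged to alpha, 19 to beta and 23 to gamma protocadherins, and 30 to CDH genes (6 probes for type I classical cadherins, 15 for type II and 9 for other genes named CDH). The members were picked by symbol, with earlier results of these data known.

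RNA was measured in 4 groups with 2 arrays each. WT was the untreated parental line, WT+NU6102 was the same line after 24 h in 20 µM NU6102, an inhibitor of CDK1 and CDK2, CDK2-/- was a purchased derivative with both copies of CDK2 knocked out, and R50 was a line obtained from resistant colonies and kept in 50 µM NU6102. Whether NU6102 was still present when the R50 RNA was prepared is not given in the sources used here. Each sample was labelled with Cy3 and hybridised alone, and the labels number the 2 samples of a group as replicates.

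Cadherins are calcium-dependent adhesion proteins of the plasma membrane. Type I cadherins such as CDH1 (E-cadherin) hold epithelial cells together at adherens junctions and bind beta-catenin and p120-catenin inside the cell. The clustered protocadherins lie in 3 neighbouring groups of genes on chromosome 5. In the alpha and gamma clusters each variable exon has its own promoter and is spliced to constant exons shared by the cluster, whereas beta genes are single exons. They are best known in neurons, where each cell uses a few of these promoters, and the choice depends on CTCF, cohesin and DNA methylation.

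Values are the log2 signal of a probe less the 75th percentile of log2 signals on the same array, so that a value of 0 marks the 75th percentile, and values of different probes are not compared with each other. A probe entered the tests if it was well above background, as the scanner software marks it, on both arrays of at least 1 group. For a probe that was above background in the brighter group alone, the filter and the difference are tied, and its p-value and call are given as a description. Limma was fitted to the 8 arrays and all 28677 tested probes, and p-values were adjusted over all of them by the Benjamini-Hochberg method. A probe passed the test at an adjusted p under 0.05, and it was called changed if the log2 difference was also at least 1. CDK2-/- and R50 were hybridised on the same slide, and treated and untreated WT on another. The inhibitor was thus compared with no inhibitor inside 1 slide, as was R50 with CDK2-/-, whereas for CDK2-/- or R50 against WT the slide and the group cannot be told apart. The sources used here call the replicates biological and do not say whether they were separate cultures, so the p-values measure the spread between these samples.

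Duplicate arrays correlated at r between 0.994 and 0.996 across tested probes, which are not independent. The CDK2 probe was lower in CDK2-/- than in WT by a log2 difference of -0.77 (limma adjusted p = 0.000268) and was above background on all 8 arrays. Of 10 markers of colorectal epithelium, 7 were above background on all 8 arrays, EPCAM, KRT8, KRT18, KRT19, CDX1, CDX2 and LGALS4, while VIL1 and CDH17 were above it on none. Single markers of other tissues were also above background on every array (VWF and CDH5 of 4 endothelial markers, PTPRC and CD14 of 4 blood markers, 3 of 7 mesenchymal and 5 of 7 neuronal ones), so that a signal above background does not by itself mark a cell type here.

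Most member probes were not distinguished from background. Of the 88 probes, 57 (64.8%) were not well above background on any array, against 34% of all probes, 17 were so on all 8 arrays and 14 on 1 to 7. Tests could be made for 21 probes (23.9%) of 20 genes, against 56.7% of all probes. Between 20 and 25 member probes were above background on a single array, with 20 and 21 for WT+NU6102, 21 and 25 for WT, 22 and 23 for CDK2-/- and 20 and 21 for R50. Type I cadherins had the highest share tested, 4 of 6 probes, followed by 5 of 15 for type II, 7 of 23 for gamma, 3 of 16 for alpha and 2 of 19 for beta protocadherins. None of the 9 probes for other CDH genes was tested.

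**Figure D1:**
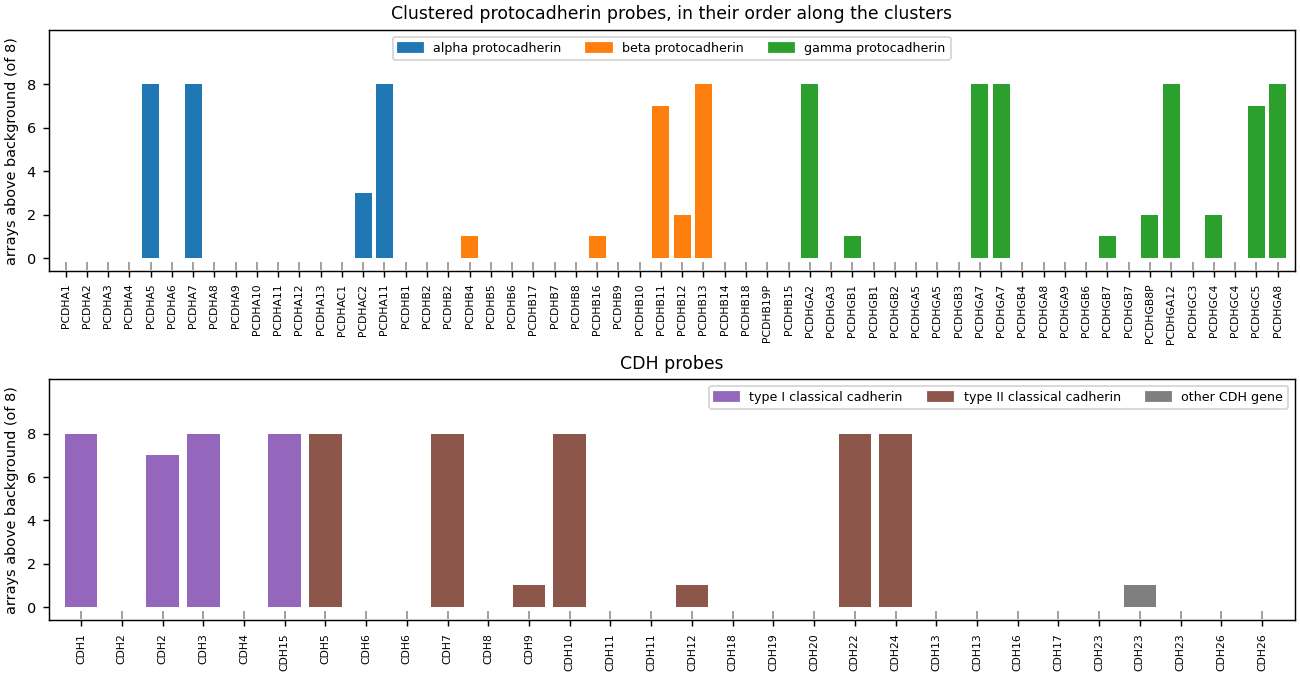
Number of arrays, of 8, on which each of the 88 member probes was well above background. The upper panel holds 58 clustered protocadherin probes in their order along the alpha, beta and gamma clusters and the lower panel 30 CDH probes, and a tick without a bar marks a probe at 0 arrays, as for 39 protocadherin and 18 CDH probes.

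The plot of arrays above background shows that signal in each protocadherin cluster came from few probes. In the alpha cluster PCDHA5, PCDHA7 and 1 of the PCDHA11 probes were above background on all 8 arrays. In the beta cluster this held for PCDHB13, while PCDHB11 reached it on 7. In the gamma cluster PCDHGA2, both PCDHGA7 probes, PCDHGA12 and 1 PCDHGA8 probe were above background on all 8 arrays and PCDHGC5 on 7. Among the C-type genes at the ends of the alpha and gamma clusters, PCDHAC1 and PCDHGC3 were not well above background on any array and PCDHAC2 was so on 3. Besides PCDHAC2, the untested probes with signal on at least 1 array were those of PCDHB4, PCDHB12, PCDHB16, PCDHGB1, PCDHGB7, PCDHGB8P, CDH9, CDH12 and CDH23, each on 1 or 2 arrays. CDH17, the liver-intestine cadherin, was not well above background on any array.

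Several probes do not read 1 gene alone. The PCDHA11 probe with signal (hg19 chr5:140390896-140390955) lies beyond the last alpha variable-exon probe, and its listed transcripts belong to PCDHA11, PCDHA9, PCDHAC1 and PCDHAC2. The other PCDHA11 probe, at chr5:140251062-140251121, was not above background on any array. In the same way the PCDHGA8 probe with signal (chr5:140892394-140892453) lies beyond every other gamma probe, and it lists transcripts of PCDHGA2, PCDHGA8, PCDHGA11 and PCDHGA12, while the other PCDHGA8 probe (chr5:140774868-140774927) gave no signal. These probes are called the shared alpha and the shared gamma probe below, and their values cannot be assigned to 1 promoter. The PCDHGA2 and PCDHGA12 probes, and 1 of the PCDHGA7 probes, also list more than 1 gamma gene.

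Beta genes are close copies of one another, and 2 pairs of beta probes that read nearly the same stretch of coding sequence are shown to let that likeness be seen. The other beta probes were not aligned. Each is a probe of 60 bases as the scanner files give it, 5′ to 3′, and capitals mark the bases that match the partner probe in a local alignment. PCDHB11 (chr5:140581576-140581635) and PCDHB8 (chr5:140559850-140559909) shared 46 of 57 aligned bases, and PCDHB13 (chr5:140595978-140596037) and PCDHB2 (chr5:140476664-140476723) shared 43 of 48.
PCDHB11: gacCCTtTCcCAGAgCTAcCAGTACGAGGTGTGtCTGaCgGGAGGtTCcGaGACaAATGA
PCDHB8: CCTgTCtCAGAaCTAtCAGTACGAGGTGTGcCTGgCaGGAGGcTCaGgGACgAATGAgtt
PCDHB13: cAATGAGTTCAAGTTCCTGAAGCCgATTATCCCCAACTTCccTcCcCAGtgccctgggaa
PCDHB2: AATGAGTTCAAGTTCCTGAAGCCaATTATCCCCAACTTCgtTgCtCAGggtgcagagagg
Within both pairs the first probe was tested and the second was not above background on any array, although the PCDHB2 probe also lists PCDHB3. The probe behind the largest difference among the members, that of PCDHGC4 (chr5:140866830-140866889), is given in lower case throughout because no part of it was compared.
PCDHGC4: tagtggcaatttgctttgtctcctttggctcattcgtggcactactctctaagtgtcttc

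In WT+NU6102 against WT, 2 of the 21 tested member probes (9.52%) were called, against a background of 6.49% of all tested probes. PCDHGC4 was higher, as were 1.28% of all tested probes, and the shared alpha probe was lower, as were 5.21%. PCDHGC4 entered the tests only through the WT+NU6102 arrays, where it was high, so its part of this count supports nothing. No member was called in CDK2-/- against WT (background 4.75%), in R50 against WT (background 2.59%) or in R50 against CDK2-/- (background 5.19%) by limma. With 21 members, counts of 0 to 2 do not set them apart from these backgrounds. At an unadjusted p under 0.05, with no minimum difference, the counts in the last 3 comparisons were 10, 3 and 9 of 21, beside 42.6%, 36.9% and 45% of all tested probes. The methods' t-test with the minimum difference called none of the members in them, at an unadjusted p under 0.05 or after Benjamini-Hochberg adjustment.

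Without the minimum difference more members passed the test. For WT+NU6102 against WT these were 6 of 21 probes (28.6%, against 44.8% of all tested probes). CDH15, CDH24 and PCDHGC4 were higher and CDH1, CDH3 and the shared alpha probe lower, 3 members each way, beside 23.8% and 21% of all tested probes. For CDK2-/- against WT 8 passed (38.1%, against 31.1%). CDH1, CDH3, CDH24, PCDHA5, PCDHB11 and the shared gamma probe were higher and CDH15 and the shared alpha probe lower, which is 6 and 2 members, beside 16.1% and 15% of all tested probes. For R50 against WT 2 passed, CDH1 and CDH3, both higher (9.52%, against 22.7% in either direction, 9.8% higher and 12.9% lower). For R50 against CDK2-/- 6 passed (28.6%, against 34.7%). CDH1 and CDH15 were higher and CDH24, PCDHA5, PCDHB11 and the shared gamma probe lower, which is 2 and 4 members, beside 14.9% and 19.8% of all tested probes. Leaving out single arrays ended some of these results, as given for each gene, and no value past the test changed sign. The median absolute log2 difference of the 21 members was 0.16, 0.26, 0.14 and 0.18 in these comparisons, beside 0.28, 0.21, 0.18 and 0.23 over all tested probes. The comparisons against WT share the WT arrays and those with CDK2-/- share its arrays, so their calls are not independent of each other.

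**Figure D2:**
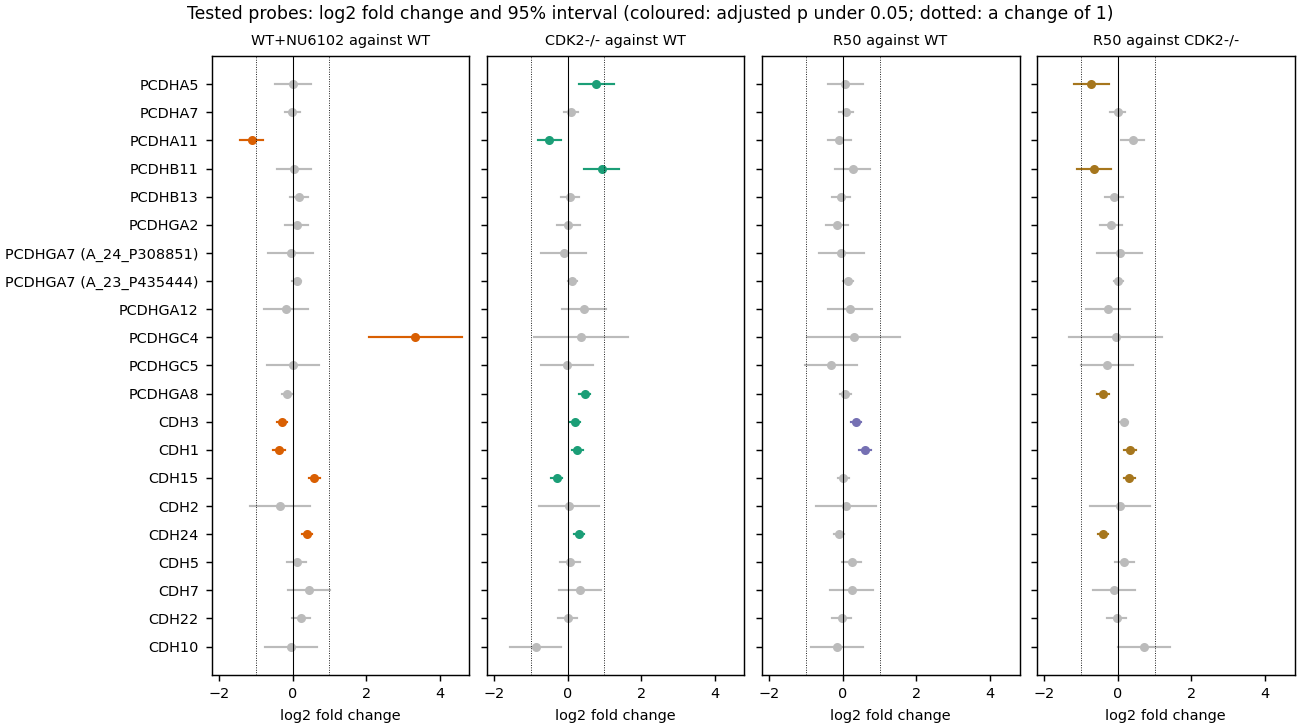
Log2 fold change (points) with its 95% interval (lines) for the 21 tested member probes in 4 comparisons. Coloured points passed an adjusted p under 0.05 and dotted lines mark a change of 1. PCDHGC4 and the shared alpha probe (PCDHA11) lie beyond the dotted lines in the WT+NU6102 panel, where the value for PCDHGC4 was fitted to WT arrays at background.

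Among the type I cadherins, CDH1 was read by 10 spots per array (chr16:68869214-68869273). Its values were 1.51 and 1.46 in WT, 1.12 and 1.11 in WT+NU6102, 1.78 and 1.72 in CDK2-/- and 2.15 and 2.01 in R50. The groups did not overlap, with WT+NU6102 lowest, then WT, CDK2-/- and R50. CDH1 fell by 0.37 (SE 0.0634, adjusted p = 0.00555) on the log2 scale under NU6102, a change of 1.3-fold. It was higher in R50 than in WT by 0.60 (adjusted p = 0.00363) or 1.51-fold, and higher in R50 than in CDK2-/- by 0.33 (adjusted p = 0.0116). The difference between CDK2-/- and WT, 0.26, passed with an adjusted p of 0.0284, but not without any 1 array of WT, CDK2-/- or WT+NU6102 (adjusted p up to 0.123). That between R50 and CDK2-/- did not pass without CDK2-/- replicate 2 (adjusted p = 0.064).

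CDH3 (P-cadherin), the neighbour of CDH1 on chromosome 16 (chr16:68732812-68732871), followed the same order of groups. Its values were 3.68 and 3.74 in WT, 3.41 and 3.44 in WT+NU6102, 3.88 and 3.95 in CDK2-/- and 4.09 and 4.05 in R50. The groups again did not overlap. CDH3 fell by 0.28 (SE 0.0528, adjusted p = 0.00781) under NU6102. Relative to WT it was 0.36 higher in R50 (adjusted p = 0.00885, and 0.0526 without WT replicate 1). In CDK2-/- it was 0.21 above WT (adjusted p = 0.0333), which did not pass once any 1 of the 8 arrays was left out (adjusted p up to 0.15). R50 and CDK2-/- differed by 0.16, and this did not pass (adjusted p = 0.0703). The mean level of the 10 epithelial markers was 0.85 to 0.88 on the WT+NU6102 arrays, 0.98 to 1.02 on WT, 0.99 to 1.08 on CDK2-/- and 1.12 to 1.19 on R50. Over the 7 markers above background on all 8 arrays it was 3.91 to 3.92 in WT+NU6102, above the 3.79 to 3.84 of WT, with 3.94 to 3.96 in CDK2-/- and 4.05 to 4.17 in R50. Under NU6102 EPCAM, KRT8 and KRT18 passed as higher and KRT19 and KRT20 as lower, and KRT20 was not above background there. Of the mesenchymal markers, VIM was called lower (-2.16) and COL1A1 higher (1.22) in CDK2-/- against WT. The part of these markers in the differences of CDH1 and CDH3 was not tested. In bulk RNA, fewer cells with a transcript and less transcript per cell cannot be told apart.

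CDH15 (M-cadherin, known from muscle, chr16:89261839-89261898) went the other way under the inhibitor. Its values were 0.02 and 0.16 in WT, 0.66 and 0.69 in WT+NU6102, -0.22 and -0.19 in CDK2-/- and 0.09 and 0.13 in R50. It rose by 0.59 (SE 0.0610, adjusted p = 0.00101) or 1.5-fold in WT+NU6102 and was lower by -0.30 (adjusted p = 0.0173) in CDK2-/- than in WT. R50 lay within the range of WT, with a difference of 0.02 (adjusted p = 0.859), and above CDK2-/- by 0.31 (adjusted p = 0.0126). The difference of CDK2-/- from WT did not pass without WT replicate 2 or either CDK2-/- array (adjusted p up to 0.0825), nor that of R50 from CDK2-/- without either CDK2-/- array or R50 replicate 2 (adjusted p up to 0.0662). CDH2 (N-cadherin), which had 1 probe above background on 7 arrays, ranged from -4.99 to -3.95 and passed in none of the 4 comparisons. Its largest difference was -0.33 in WT+NU6102 (95% interval -1.15 to 0.48), whose arrays were -4.99 and -3.95. Without WT+NU6102 replicate 2 this difference was -0.85. That value rests on the lower array alone, and only 1 of the 2 WT+NU6102 arrays was above background for this probe. CDH4 was not above background on any array.

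Of the type II cadherins only CDH24 (chr14:23516949-23517008) passed a test. Its values were -0.23 and -0.20 in WT, 0.22 and 0.13 in WT+NU6102, 0.09 and 0.11 in CDK2-/- and -0.26 and -0.34 in R50. Treated WT and CDK2-/- cells were higher than WT by 0.39 (adjusted p = 0.00289) and 0.31 (adjusted p = 0.0105), and neither overlapped with it. The latter did not pass without WT replicate 1 or CDK2-/- replicate 2 (adjusted p up to 0.0595). R50 did not differ from WT past the test (-0.09, adjusted p = 0.293) and lay below CDK2-/- by a log2 difference of -0.40 (adjusted p = 0.00388). CDH5, CDH7, CDH10 and CDH22 were above background on all 8 arrays and passed in no comparison. The CDH10 probe had the widest difference of these, -0.87 in CDK2-/- against WT (95% interval -1.57 to -0.17, adjusted p = 0.0664), with values of -3.03 and -3.36 in WT and -4.08 and -4.06 in CDK2-/-.

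**Figure D3:**
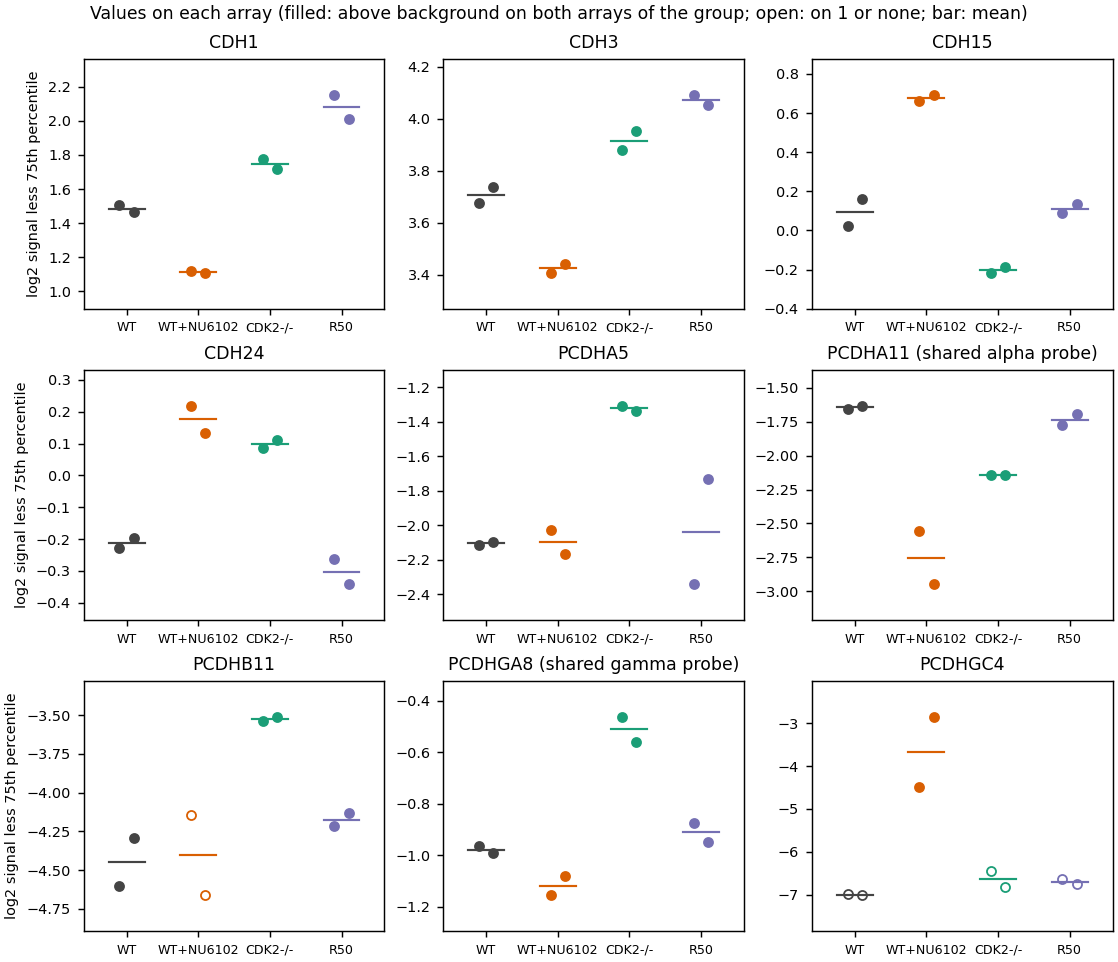
Value of 9 member probes on each of the 8 arrays (log2 signal less the 75th percentile of the array, own scale in each panel), with the mean of the 2 arrays of a group as a bar. Filled points mark groups in which both arrays were above background. CDH1 and CDH3 rank the groups alike, PCDHA5, PCDHB11 and the shared gamma probe are highest in CDK2-/-, and PCDHGC4 is above background only in WT+NU6102.

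In the alpha cluster, PCDHA5 (chr5:140203700-140203759) had values of -2.11 and -2.09 in WT, -2.03 and -2.17 in WT+NU6102, -1.31 and -1.34 in CDK2-/- and -2.34 and -1.73 in R50. CDK2-/- was above all other arrays, by 0.78 over WT (SE 0.192, adjusted p = 0.0300) or 1.72-fold, and R50 was below it by a log2 difference of -0.71 (adjusted p = 0.0363). The R50 arrays lay 1 above and 1 below those of WT. Without R50 replicate 1 the latter difference was -0.41 and without R50 replicate 2 it was -1.02, which is past the minimum for a call. Neither difference passed without any 1 array of WT, CDK2-/- or WT+NU6102 (adjusted p up to 0.116 against WT and 0.127 between R50 and CDK2-/-). PCDHA7 did not differ past the test in any comparison, and its log2 differences lay between -0.01 and 0.09.

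The shared alpha probe had values of -1.65 and -1.63 in WT, -2.56 and -2.95 in WT+NU6102, -2.14 and -2.15 in CDK2-/- and -1.77 and -1.69 in R50. WT+NU6102 was the lowest group, with no overlap, and the probe fell by 1.11 (SE 0.126, adjusted p = 0.00133) or 2.16-fold against WT. Without WT+NU6102 replicate 2 the difference was -0.92, short of the minimum for a call. In CDK2-/- it was lower than WT by -0.50 (adjusted p = 0.0322), though not past the test without any 1 array of WT, CDK2-/- or R50 (adjusted p up to 0.118), and R50 did not differ from WT past the test (-0.09, adjusted p = 0.653). PCDHA5 was thus higher and the shared alpha probe lower in the same CDK2-/- arrays.

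The PCDHA5 promoter is shown because the PCDHA5 probe lists no other gene and this member differed between lines. The transcripts named for the PCDHA5 and PCDHGC4 probes are short forms that lack the constant exons, and whether the probes also read the long forms was not settled. It covers the 250 bases before the RefSeq start (GRCh38.p14, chr5:140821363-140821612, plus strand), with the motif CGCT, the core of the element that clustered protocadherin promoters share, in capitals. Both strands were searched, so that AGCG also counts.
PCDHA5: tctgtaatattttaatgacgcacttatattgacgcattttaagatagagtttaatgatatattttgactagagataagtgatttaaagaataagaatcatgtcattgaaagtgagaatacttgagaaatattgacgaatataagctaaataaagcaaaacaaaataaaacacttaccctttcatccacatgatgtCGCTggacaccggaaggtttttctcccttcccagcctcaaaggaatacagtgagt
The motif occurred in this window 1 time. It was present in 50 of 52 clustered protocadherin promoters (96.2%), in 82.6% of 23 CDH promoters and in 64.8% of all 35116 promoters of the same length, so that its presence is common and does not mark a binding site.

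In the beta cluster, PCDHB11 had values of -4.60 and -4.29 in WT, -4.14 and -4.66 in WT+NU6102, -3.54 and -3.51 in CDK2-/- and -4.21 and -4.13 in R50. CDK2-/- was again above every other array. The difference from WT was 0.92 (SE 0.188, adjusted p = 0.0167), or 1.89-fold, and R50 lay below CDK2-/- by a log2 difference of -0.65 (adjusted p = 0.0456). Without WT replicate 2 the difference between CDK2-/- and WT was 1.07, past the minimum for a call, and with normexp background correction it was 0.39. It did not pass without WT replicate 1 or either CDK2-/- array (adjusted p up to 0.0832), and the difference between R50 and CDK2-/- did not without any 1 array of WT, CDK2-/- or R50 (adjusted p up to 0.153). PCDHB13, the other tested beta gene, had differences between -0.09 and 0.16 and passed in no comparison.

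In the gamma cluster, the shared gamma probe had values of -0.96 and -0.99 in WT, -1.16 and -1.08 in WT+NU6102, -0.46 and -0.56 in CDK2-/- and -0.87 and -0.95 in R50. CDK2-/- was above every other array, by 0.47 over WT (SE 0.0604, adjusted p = 0.00371) or 1.38-fold, and R50 was below it by a log2 difference of -0.40 (adjusted p = 0.00538). Both passed whichever single array was left out. Against WT neither WT+NU6102 (-0.14, adjusted p = 0.114) nor R50 (0.07, adjusted p = 0.483) passed. The gamma probes of PCDHGA2, PCDHGA7, PCDHGA12 and PCDHGC5 passed in none of the comparisons.

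PCDHGC4, a C-type gamma gene, was above background on the WT+NU6102 arrays alone. Its values there were -4.49 and -2.85, against -6.98 and -7.02 in WT, -6.45 and -6.83 in CDK2-/- and -6.64 and -6.75 in R50. The signal was at least 2.43-fold higher in WT+NU6102 than in WT, counting WT at the lowest signal that was well above background on each array. This bound rests on 2 unequal arrays and was 4.28-fold without WT+NU6102 replicate 1 and 1.37-fold without replicate 2. The adjusted p of the fit was 0.0037, for a probe that passed the filter only through the group where it was high. The fitted difference, 3.33, depends on values at background and on the array, being 4.15 without WT+NU6102 replicate 1, 2.51 without replicate 2 and 0.86 with normexp correction. The other PCDHGC4 probe starts 456 bases further along the same transcript and was not above background on any array, WT+NU6102 included.

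The moderated F-test among the 4 groups, at an adjusted p under 0.001, passed CDH1, CDH3 and CDH15, 3 of 21 members, against 21.2% of all tested probes. For the other 6 members that passed in a pairwise comparison, the adjusted p of the F-test was 0.00164 for the shared gamma probe, 0.00175 for CDH24, 0.00216 for the shared alpha probe, 0.00609 for PCDHGC4, 0.0205 for PCDHB11 and 0.034 for PCDHA5. PCDHGC4 passed the filter only through the WT+NU6102 arrays, where it was high, so its F-test p is given as a description. Leaving out any 1 array left 0 or 1 member past this F-test. No protocadherin passed that F-test.

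Genes that work with cadherins were examined by lists, 1 probe a gene, with the brightest probe standing for the gene. The desmosomal cadherins link cells to the keratin network, and 3 of 7 were tested. All 3 passed the test as higher in CDK2-/- than in WT, beside 16.1% of all tested probes. All 3 also passed as lower in R50 than in CDK2-/-, beside 19.8%. The list medians were 1.72 and -1.37, beside 0.02 and -0.06 over all tested genes. DSC2 had values of -1.05 and -1.26 in WT, -1.62 and -1.45 in WT+NU6102, 0.55 and 0.58 in CDK2-/- and -0.86 and -0.74 in R50. It rose by 1.72 in CDK2-/- (adjusted p = 0.000264) and was lower by -1.37 in R50 than in CDK2-/- (adjusted p = 0.000462). DSC3 rose by 1.80 in CDK2-/- (adjusted p = 0.0348) and was not above background in R50, so that it was at least 8.96-fold lower there than in CDK2-/- (adjusted p = 0.00196). On its second probe this bound was 5.6-fold. DSG2 stood 0.58 above WT in CDK2-/- cells (adjusted p = 0.000607). In R50 against WT 2 of the 3 passed as lower, beside 12.9% of all tested probes. DSC3 was at least 2.58-fold lower (adjusted p = 0.0215; second probe at least 1.62-fold) and DSG2 differed by -0.24 (adjusted p = 0.0173). DSC2 differed by 0.35 and did not pass (adjusted p = 0.0559).

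The catenins and other junction partners had 13 of 16 genes tested. In CDK2-/- against WT 5 passed as higher and 2 as lower, in R50 against WT 3 and 1, in R50 against CDK2-/- 4 and 5, and in WT+NU6102 against WT 1 and 4. With 13 genes these counts stand beside the shares of all tested probes given above, namely 16.1% and 15%, 9.8% and 12.9%, 14.9% and 19.8%, and 23.8% and 21%, higher and lower. CTNNB1 (beta-catenin), which joins CDH1 to the actin cytoskeleton through alpha-catenin, passed in none, with differences between -0.01 and 0.18. JUP (plakoglobin) fell by 0.86 under NU6102 (adjusted p = 0.000219). PVRL4 (nectin 4) had values of -2.75 and -2.75 in WT and -0.20 and -0.27 in CDK2-/-, where it rose by 2.52 (adjusted p = 1.53e-05), and it was higher than WT in R50 by 1.46 (adjusted p = 0.000145). PVRL3 (nectin 3) rose by 1.75 in CDK2-/- and fell by 1.08 in R50, both against WT, and its second probe moved in the same directions by 1.32 and -0.81. CTNND1 (p120-catenin) was higher by 0.72 in CDK2-/- (adjusted p = 0.000927), but its other probe differed by 0.08.

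Among 11 repressors of CDH1, 7 were tested. In WT+NU6102 against WT 2, ZEB1 and SNAI1, passed as higher and 0 as lower, beside 23.8% and 21% of all tested probes. The list median was -0.20, beside 0.04 over all tested genes. SNAI2, SNAI3, KLF8, TWIST1 and TCF3 had differences of -0.08 to -0.56 there and did not pass. In CDK2-/- against WT 1 and 3 passed (all probes 16.1% and 15%), and in R50 against WT 1 and 1 (9.8% and 12.9%). In R50 against CDK2-/- it was 2 and 3 (14.9% and 19.8%). ZEB1, which binds the CDH1 promoter, had values of -2.36 and -2.12 in WT, -0.85 and -1.0 in WT+NU6102, -2.72 and -2.61 in CDK2-/- and -1.81 and -1.78 in R50. It rose by 1.31 under NU6102 (adjusted p = 0.0004). Its second probe, not above background in WT, was at least 1.57-fold higher in WT+NU6102. That probe passed the filter only through the group where it was high, so it adds no support. In R50 the first probe was 0.44 above WT (adjusted p = 0.03), and the second was not above background in either. SNAI1 was higher by 0.22 in WT+NU6102 (adjusted p = 0.00894), and SNAI2, near background, was not above it in R50 and was at least 1.29-fold lower there than in WT (adjusted p = 0.0418). TWIST1 was lower by -0.92 (adjusted p = 0.000841) and TCF3 higher by 0.83 (adjusted p = 0.000327) in CDK2-/- than in WT.

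**Figure D4:**
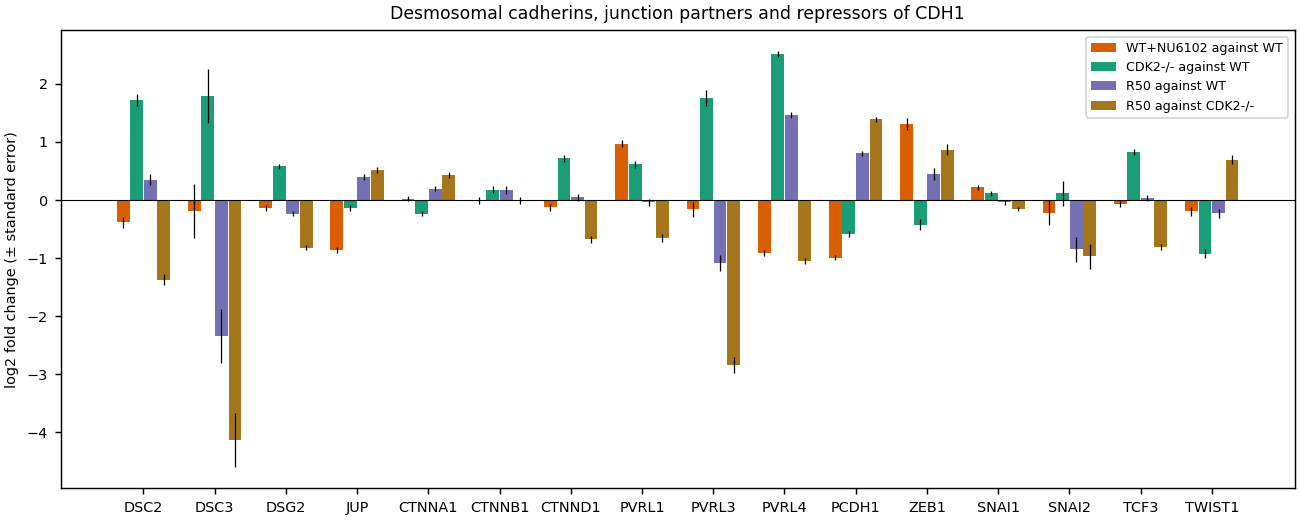
Fitted log2 fold change with its standard error for the 3 tested desmosomal cadherins, 7 junction partners, PCDH1 and 5 repressors of CDH1 in 4 comparisons. The desmosomal cadherins are highest in CDK2-/-, ZEB1 has its largest bar under NU6102, and the bars of DSC3 and SNAI2 against R50 rest on R50 arrays at background.

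Factors known to act on the protocadherin clusters had 21 of 22 genes tested. On the brightest probe of each, none was called in any comparison by limma. Of all tested probes 2.59% to 6.49% were, so that 0 of 21 does not set them apart. Further probes of these genes were not counted. Under NU6102 those of DNMT3A differed from WT by 0.96 and -1.25, and those of SMC1A by -1.18 and 0.18. Without the minimum difference 7 genes passed as higher and 3 as lower in WT+NU6102 against WT, beside 23.8% and 21% of all tested probes. In CDK2-/- against WT it was 2 and 1 (all probes 16.1% and 15%), and in R50 against WT 0 and 5 (9.8% and 12.9%). In R50 against CDK2-/- it was 2 and 7 (14.9% and 19.8%). CTCF, which binds these promoters, was higher by 0.26 in WT+NU6102 (adjusted p = 0.0114) and did not pass in CDK2-/- (-0.09) or R50 (-0.15). SMCHD1, a repressor of the clusters, was higher by 0.37 in WT+NU6102 (adjusted p = 0.0024), and its other probes differed by 0.09 and 0.3. The cohesin subunit SMC3 was higher by 0.67 in CDK2-/- than in WT (adjusted p = 0.000841), and the DNA methyltransferase DNMT3B was lower by -0.80 in R50 than in CDK2-/- (adjusted p = 0.000944).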

How the data were processed

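Per the labels and the study's methods, RNA of 8 HCT-116 samples was labelled with Cy3 and hybridised to Agilent SurePrint G3 arrays of 60-base probes. The authors deposited, for each spot, a background-subtracted intensity, made with Agilent Feature Extraction 11.5.1.1 and not yet normalized across arrays. A second table that the authors deposited holds log2 values of 28719 probes from GeneSpring GX. Compared with the scanner signals these were centred on each probe's median, and 99.9% lay within 0.1 of that difference, with column medians of -0.0212 to 0.0235. They served as an alternative, and how probes were selected for them is not given in the sources used here.

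Of 62976 spots, 58717 were not controls. Outlier spots were left out, log2 signals were set against the 75th percentile of each array, spots of a probe were averaged, and 31 probes without a usable spot on some array were dropped. No spot (0) was saturated. Spots well above background numbered 32376 to 36206 per array. Precision is limited by having 2 arrays a group. R 4.3.3 with limma 3.58.1 fitted 4 groups to 28677 probes (two-sided tests). The fit was tested on simulated data. A bound ("at least") sets a probe not above background at the higher of its own signal and the lowest signal of any probe above background on each array. Alternatives were normexp (offset 50), quantile normalization, no filter or a stricter one on dim probes, outlier spots kept, the authors' values, no minimum difference, a trended prior variance, the methods' ANOVA and t-test, 2-group fits, a replicate block and leaving out each array. The PCDHGC4 bound without single arrays and the mean of the 7 epithelial markers above background on all arrays were added after seeing the data. Positions are those of the scanner files (hg19). Of the 88 member probes, 85 carry a RefSeq accession and all 85 matched the RefSeq table of GRCh38.p14, where PCDHB17 and PCDHB18 are named PCDHB17P and PCDHB18P. Probe pairs were aligned with Biopython 1.88 and figures drawn with matplotlib 3.10.9.

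The members and gene lists were chosen with earlier results of these data known. By rule, the text names every called member, CDH1, CDH2, CDH3, CDH17 and the C-type protocadherins. In each list other than the tissue markers it names the called genes, up to 4 by size. CTNNB1, CTCF, SMCHD1, ZEB1, SNAI1 and SNAI2 are always named. Other genes, among them members that passed without being called, were named after their values were seen.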

Additional observations from a re-analysis of the deposited data

How the results depend on the processing

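The 22 differences of single members that passed the test were recomputed under 13 alternatives each, 286 values in all. No value changed sign, 220 still passed and 66 did not, 51 of them with 1 array left out, and 10 of the 22 differences passed throughout. PCDHGC4 in WT+NU6102 against WT is among the 10. It passed the filter only through the group where it was high, so its passes support nothing. Without the filter 11 differences no longer passed, with 88 members tested among more probes. Called members in WT+NU6102 against WT were 0 with normexp background correction, 1 for probes above background on all 8 arrays, and 5 with no filter, where PCDHAC2, PCDHB4 and PCDHGB7 were lower. With no filter CDK2-/- against WT gave 2 (PCDHB4 lower, PCDHA6 higher) and R50 against CDK2-/- gave 1 (PCDHA6 lower). PCDHA6 was above background on 0 of 8 arrays, PCDHB4 and PCDHGB7 on 1 and PCDHAC2 on 3, so these directions rest on values at background. The methods' t-test called 1 member in WT+NU6102 at an unadjusted p under 0.05 and 0 after adjustment. With no minimum difference the counts were 6 for WT+NU6102, 8 for CDK2-/-, 2 for R50 against WT and 6 for R50 against CDK2-/-. With 1 array left out the counts ranged from 1 to 2 for WT+NU6102, where the lower one lacks WT+NU6102 replicate 2, from 0 to 1 for CDK2-/- against WT, where the higher one lacks WT replicate 2, and from 0 to 1 for R50 against CDK2-/-, where the higher one lacks R50 replicate 2. The remaining lone array of a group was then assumed to vary like the others. The cause of these shifts was not tested.

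Members past the F-test were 3 in the report, 6 with normexp, 6 with a prior variance fitted as a trend on intensity, 6 for probes above background on all 8 arrays, 9 at an adjusted p under 0.05, 0 with no filter, 0 by the methods' ANOVA and from 0 to 1 with 1 array left out. With a replicate block it was 0, and the counts of called members stayed at 2, 0, 0 and 0, while 3 differences no longer passed. Deviations of same-numbered replicates correlated between groups at -0.028 to 0.0452, and none was over 0.1. No large shared deviation was thus seen, but this cannot tell whether same-numbered samples were prepared together.

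Only 2 arrays a group, and signals near background for most protocadherins, limit these results. A member not above background has no measured level, and its absence cannot be read from these arrays.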

Other observations

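Of 24 genes that lie beside the protocadherin clusters on chromosome 5, 23 were tested. In WT+NU6102 against WT, 7 passed the test as higher and 6 as lower, beside 23.8% and 21% of all tested probes. The called ones were APBB3, an adaptor of amyloid precursor protein, which fell by 1.69 on the log2 scale (limma adjusted p = 9.33e-05; its second probe differed by -0.84), and TMCO6, which fell by 1.004 (adjusted p = 0.000236). In CDK2-/- against WT, 8 passed as higher and 3 as lower (all probes 16.1% and 15%), and in R50 against WT 3 and 2 (all probes 9.8% and 12.9%). FCHSD1, not above background in WT, was at least 2.1-fold higher in CDK2-/- and at least 2.07-fold higher in R50, and it passed the filter only through these groups, so no p-value is given. It is among the genes counted as higher in both comparisons with WT, and its part of these counts supports nothing. In R50 against CDK2-/-, 4 were higher and 9 lower (all probes 14.9% and 19.8%), and TAF7, a subunit of TFIID encoded between the beta and gamma clusters, fell by 1.07 (adjusted p = 0.000718).

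PCDH1, a protocadherin outside the clusters, was 1 of 3 tested among 12 non-clustered genes. Its values were 3.82 and 3.83 in WT, 2.83 and 2.84 in WT+NU6102, 3.21 and 3.27 in CDK2-/- and 4.64 and 4.61 in R50, with no overlap of groups. The difference of R50 from CDK2-/- was 1.39 (adjusted p = 5.31e-05; second probe 1.12), that of R50 from WT 0.80 (second probe 1.14) and that of WT+NU6102 from WT -0.99 (second probe -0.46). In CDK2-/- the probes differed, at -0.58 and 0.02. Of 17 large atypical cadherins 10 were tested and none was called in any comparison by limma. Of all tested probes 2.59% to 6.49% were. Without the minimum difference FAT1 was lower in CDK2-/- than in WT by -0.53 (adjusted p = 0.00161), and CELSR2 was higher in R50 than in WT by 0.65 (adjusted p = 0.0032).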
